A study of Homo sapiens with 72 samples.

Results

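The chemokine and homing group is 10 genes, chosen by name, of 20007 protein-coding genes located with GENCODE 44 on hg38. It holds the receptors CXCR4, CXCR5, CCR6, CCR7 and CCR10, the sphingosine-1-phosphate receptor S1PR1, and the ligands CCL3, CCL4, CCL17 and CCL22. The 3 histone marks were read by Cut&Tag, in which an antibody directs a transposase to cut DNA beside the marked nucleosomes: H3K4me2 (starts and enhancers), H3K4me3 (active starts) and H3K27me3 (Polycomb-silenced chromatin). Raji, a Burkitt lymphoma line, and NALM6 and REH, both pre-B acute lymphocytic leukemia lines, were left untreated or treated with 1 nM bryostatin, a protein kinase C modulator, overnight as the labels have it. Each of the 18 groups had 3 libraries, 54 in all, and each line stands for a single tumor. The labels do not say whether replicates came from separate cultures, so p-values measure only the spread between these libraries.

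On hg38 the receptors lie at chr2:136114349-136119177 (CXCR4), chr11:118883892-118897787 (CXCR5), chr6:167111807-167139141 (CCR6), chr17:40553769-40565472 (CCR7), chr17:42678889-42683917 (CCR10) and chr1:101236865-101243713 (S1PR1). The ligands lie in pairs, at chr17:36088256-36090169 (CCL3) and chr17:36103827-36105621 (CCL4), and at chr16:57358783-57366189 (CCL22) and chr16:57404767-57416063 (CCL17).

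Chemokine receptors guide lymphocytes along gradients of their ligands. CXCR4 holds precursor B cells in bone marrow, CXCR5 draws B cells into follicles, CCR7 draws lymphocytes to the T cell zone and CCR6 marks mature and memory B cells. S1PR1 guides exit from tissues into blood and lymph. CCL3 and CCL4 are inflammatory ligands, and CCL17 and CCL22 are ligands of CCR4 that attract T cells.

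Library depth, estimated from the smallest signal step in the 48 libraries with RPKM coverage, ran from 5.12 to 47.9 M mapped reads (M for mega) with a median of 18.8. The 6 NALM6 replicate 1 libraries carry another, unstated scaling and were also left out in turn. H3K27me3 libraries ran from 590 to 101702 peaks, so their peaks are given by library. Start peaks of H3K4me3 were found in at least 4 of 6 Raji libraries for 7 of 7 B lineage markers and 1 of 7 precursor B markers. NALM6 and REH each had them for 4 of the B lineage and 6 of the precursor markers, and none of the 5 myeloid markers had them in at least 4 libraries of any line. Of the 5 T cell markers, CD247 had them in NALM6 and REH.

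The sequences of 2 starts whose marks differed between lines are shown first, each running from 250 bases before to 50 bases after a start. For CCL22, whose start was marked in Raji, capitals mark a match to the NF-kB motif, searched on both strands. For S1PR1, marked in every line, capitals mark the KLF motif CACCC or its complement.
CCL22 from RefSeq, GRCh38.p14 chr16:57358533-57358832, plus strand: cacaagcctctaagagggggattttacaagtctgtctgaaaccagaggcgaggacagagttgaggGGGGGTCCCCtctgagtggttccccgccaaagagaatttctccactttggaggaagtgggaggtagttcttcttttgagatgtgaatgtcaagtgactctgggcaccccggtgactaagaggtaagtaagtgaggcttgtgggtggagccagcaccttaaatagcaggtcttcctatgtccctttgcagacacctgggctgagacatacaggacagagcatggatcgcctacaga
S1PR1 from RefSeq, GRCh38.p14 chr1:101236769-101237068, plus strand: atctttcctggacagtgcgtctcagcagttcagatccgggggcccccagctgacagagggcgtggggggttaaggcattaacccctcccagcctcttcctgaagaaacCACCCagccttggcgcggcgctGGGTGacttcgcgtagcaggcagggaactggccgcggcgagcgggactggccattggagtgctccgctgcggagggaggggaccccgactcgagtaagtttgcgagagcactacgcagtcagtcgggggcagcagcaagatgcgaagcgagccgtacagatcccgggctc
The CCL22 window held 1 NF-kB match. Of 35116 RefSeq promoters of that length, 5.91% held an NF-kB match. The S1PR1 window held 2 KLF matches, a motif present in 59.9% of promoters. A match describes letters in the window and no binding. Of the 10 genes, 6 were in the RefSeq promoter table.

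**Figure D1:**
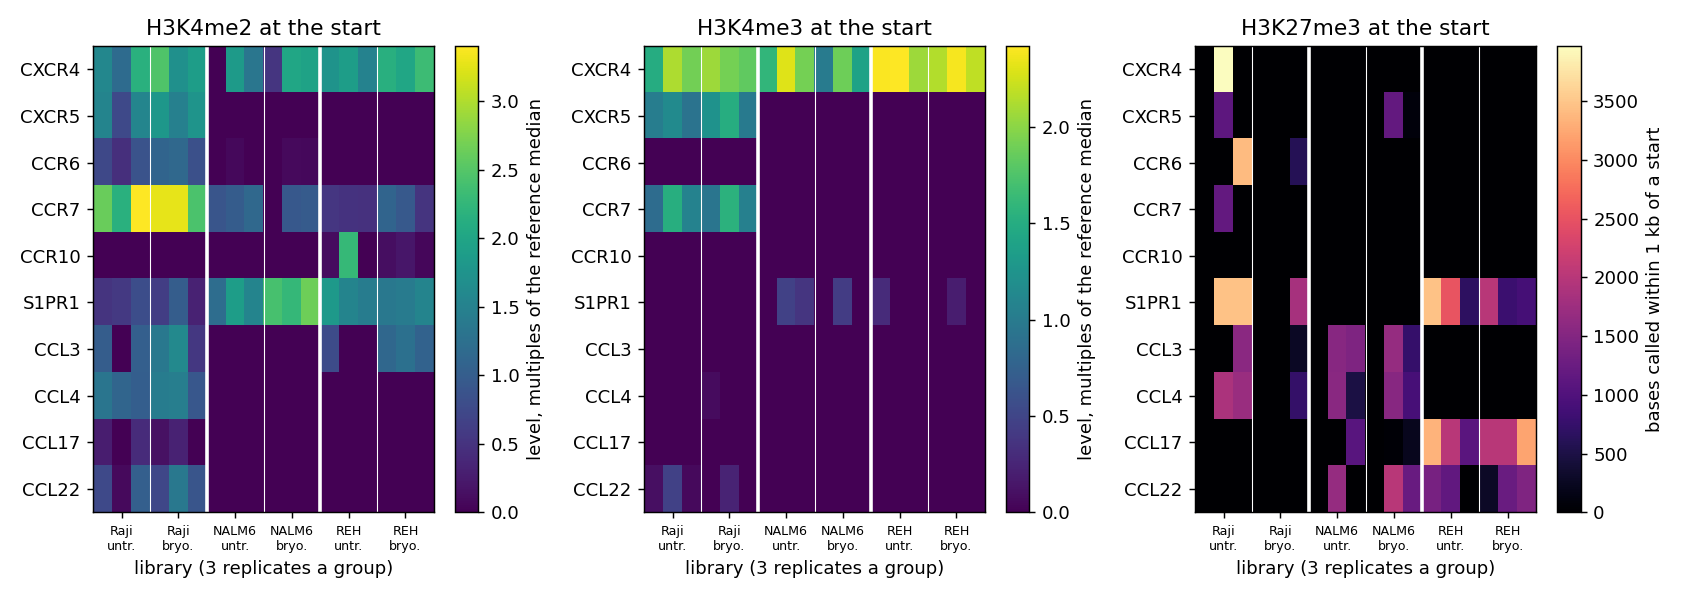
Marks within 1 kb of the starts of the 10 genes (rows) in every library (columns, 3 replicates a group, ordered by line and treatment, untr. for untreated and bryo. for bryostatin). Colors give the level in multiples of the reference median for H3K4me2 and H3K4me3, and the called bases for H3K27me3. CXCR5 and CCL22 have color in the Raji columns alone for H3K4me2 and H3K4me3, and CCL17 in all 6 REH columns for H3K27me3.

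A level below is the called signal within 1 kb of a gene's starts, in multiples of the median over genes marked in all 18 libraries of that mark. A start without a called peak is listed at 0, which is no measure of absence. Levels are compared between lines and not between genes, whose windows differ in length.

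CXCR5, the follicle-homing receptor, was marked at its start in Raji and had no start peak of H3K4me2 or H3K4me3 in any NALM6 or REH library. Its H3K4me2 level in Raji was 1.53, 0.755 and 1.55 in the untreated libraries and 1.80, 1.49 and 1.76 with bryostatin. The H3K4me3 level was 1.02, 1.16 and 0.925 untreated and 1.23, 1.51 and 0.995 treated. For both marks the exact two-sided permutation of lines within treatments gave p = 0.005 against each other line, the smallest its 400 arrangements can give. That test takes untreated and treated libraries of a number as separate. Moving them as whole pairs leaves 20 arrangements and no p below 0.1, so each exact p between lines given here rests on that separation. The H3K4me2 of Raji reached far into the gene, with 6320 to 15340 bases called in the gene and its 3 kb flanks. H3K27me3 was called in that window in 4 of 6 NALM6 libraries, all but replicate 1 of each treatment, and in 1 Raji and 0 REH libraries.

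CCR7, the receptor for the T cell zone, carried H3K4me3 at its start in 6 of 6 Raji libraries, at 0.854 to 1.56 with a median of 1.06, and in 0 of 12 others (exact permutation p = 0.005 against either line). H3K4me2 was called within 1 kb of a CCR7 start in all lines at different levels. The 3 annotated starts run from 40561013 to 40565472, and the level joins them. In untreated REH replicate 2 and treated REH replicate 3 the start peaks, 40559071-40561700 and 40559291-40562400, did not reach the outer start. Nor did that of untreated NALM6 replicate 1, 40560454-40561320. Untreated REH replicates 1 and 3 had 1648 and 1488 bases called in the start windows, beside 1688 in replicate 2. The H3K4me2 level was 2.86 ± 0.523 in Raji, 0.825 ± 0.413 in NALM6 and 0.680 ± 0.271 in REH (SD, n = 6), with every Raji library above every other. Limma over 12920 starts gave a log2 difference of 2.05 (SE 0.58, adjusted p = 0.0153) for Raji over REH and 2.20 (SE 0.58, adjusted p = 0.0109) for Raji over NALM6. With a pseudocount of 0.01 the call over REH was lost (adjusted p = 0.0992). At the gene record end alone, 40565472, the log2 difference of Raji over REH was 3.56 (adjusted p = 0.00122, limma). NALM6 and REH overlapped (log2 difference -0.15, SE 0.58, adjusted p = 0.871). Without NALM6 replicate 1, whose treated library had no CCR7 start peak, that difference was 0.67 with adjusted p = 0.0174.

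CCR6 had called H3K4me2 and no called H3K4me3 at its starts. The H3K4me2 level in Raji was 0.731, 0.463 and 0.876 untreated and 1.09, 1.15 and 0.831 treated. NALM6 had a start peak in 3 of 6 libraries at no more than 0.0799, below every Raji library. REH had none (exact permutation p = 0.005 for Raji against either other line). These levels leave out the highest peak of the gene. Its summit lay a median of 2338 bases from the first start in both Raji and NALM6, outside the 1 kb windows. In the gene with 3 kb flanks H3K4me2 was called in 6 of 6 Raji, 5 of 6 NALM6 and 0 of 6 REH libraries. No library of any line had an H3K4me3 start peak.

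CXCR4, the bone marrow homing receptor, was marked in every line. Its H3K4me3 level was 1.89 ± 0.219 in Raji, 1.68 ± 0.454 in NALM6 and 2.27 ± 0.153 in REH (SD, n = 6), with a peak in 18 of 18 libraries. Neighbours in that order overlapped between libraries. NALM6 was lower than REH by limma, with a log2 difference of -0.46 (SE 0.14, adjusted p = 0.0338), but without NALM6 replicate 1 this was -0.28 with adjusted p = 0.0901. H3K4me2 peaks were missing in 1 library, untreated NALM6 replicate 1, and no pair of lines differed past the threshold (adjusted p = 0.205 to 0.983). H3K27me3 was called at the start in 1 library, untreated Raji replicate 2. That library also had the H3K27me3 start peaks of CXCR5 and CCR7 in Raji and had such a peak at 57.1% of all genes. A divergent long non-coding RNA, ENSG00000289974, starts at position -279 from the CXCR4 start, and its mark cannot be told apart from that of CXCR4.

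CCR10, a receptor of skin and mucosal homing, lies among other genes, and most peaks in its window lay over the start of PLEKHH3, which is in that window 6923 bases downstream of the CCR10 start. The long non-coding RNA ENSG00000267042 also starts in the window, 3954 bases downstream. A peak over both starts cannot be divided between them. Within 1 kb of a CCR10 start H3K4me2 was called in 5 of 6 REH, 1 of 6 NALM6 and 0 of 6 Raji libraries. Each of these calls was the edge of the peak over the PLEKHH3 start. In REH it reached 98 and 2228 bases into the start window in untreated replicates 1 and 2. The treated replicates gave 108, 168 and 48 bases, and treated NALM6 replicate 2 gave 8. The REH levels were 0.113, 2.28 and 0 untreated and 0.129, 0.210 and 0.0593 treated, so a single library held most of the signal. Limma gave a log2 difference of -2.10 (SE 0.65, adjusted p = 0.0252) for Raji minus REH and the exact permutation p = 0.020. Raji, at 0 in every library, has no spread in that fit. The limma call was lost with a pseudocount of 0.2, with quantile normalization or without treated REH replicate 2 (adjusted p = 0.0800, 0.147 and 0.0622), and without untreated REH replicate 2 the log2 difference was -1.32. No H3K4me3 or H3K27me3 peak lay within 1 kb of its starts.

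S1PR1, the receptor for exit from tissues, ran the other way. H3K4me2 lay at its start in 18 of 18 libraries, at 0.640 ± 0.236 in Raji, 1.99 ± 0.550 in NALM6 and 1.52 ± 0.167 in REH (SD, n = 6). Every Raji library was below every NALM6 and REH library. Raji was lower than REH (log2 difference -1.25, SE 0.21, adjusted p = 0.000286, limma) and lower than NALM6 (-1.59, SE 0.21, adjusted p = 4.37e-05). Both calls were lost with only the peaks above each library's median signal (adjusted p = 0.651 and 0.264). NALM6 and REH overlapped (0.34, SE 0.21, adjusted p = 0.251), but with windows of 2.5 kb the difference was 0.75 and passed (adjusted p = 0.000344). H3K4me3 was called in 3 NALM6, 2 REH and 0 Raji libraries, and the lines did not pass the test (adjusted p = 0.102 to 0.497). Without untreated NALM6 replicate 1, Raji was lower than NALM6 with adjusted p = 0.0312. H3K27me3 was called at the start in 6 of 6 REH, 3 of 6 Raji and 0 of 6 NALM6 libraries. The 3 Raji libraries, untreated replicates 2 and 3 and treated replicate 3, had 24143, 73265 and 101702 H3K27me3 peaks. The other Raji libraries had 819 to 3424. In REH and in Raji both H3K4me2 and H3K27me3 were thus called around this start. Whether the 2 marks lay on the same cells cannot be told from bulk libraries. The divergent transcript S1PR1-DT starts at position -241 from the S1PR1 start, and its mark cannot be told apart from that of S1PR1.

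**Figure D2:**
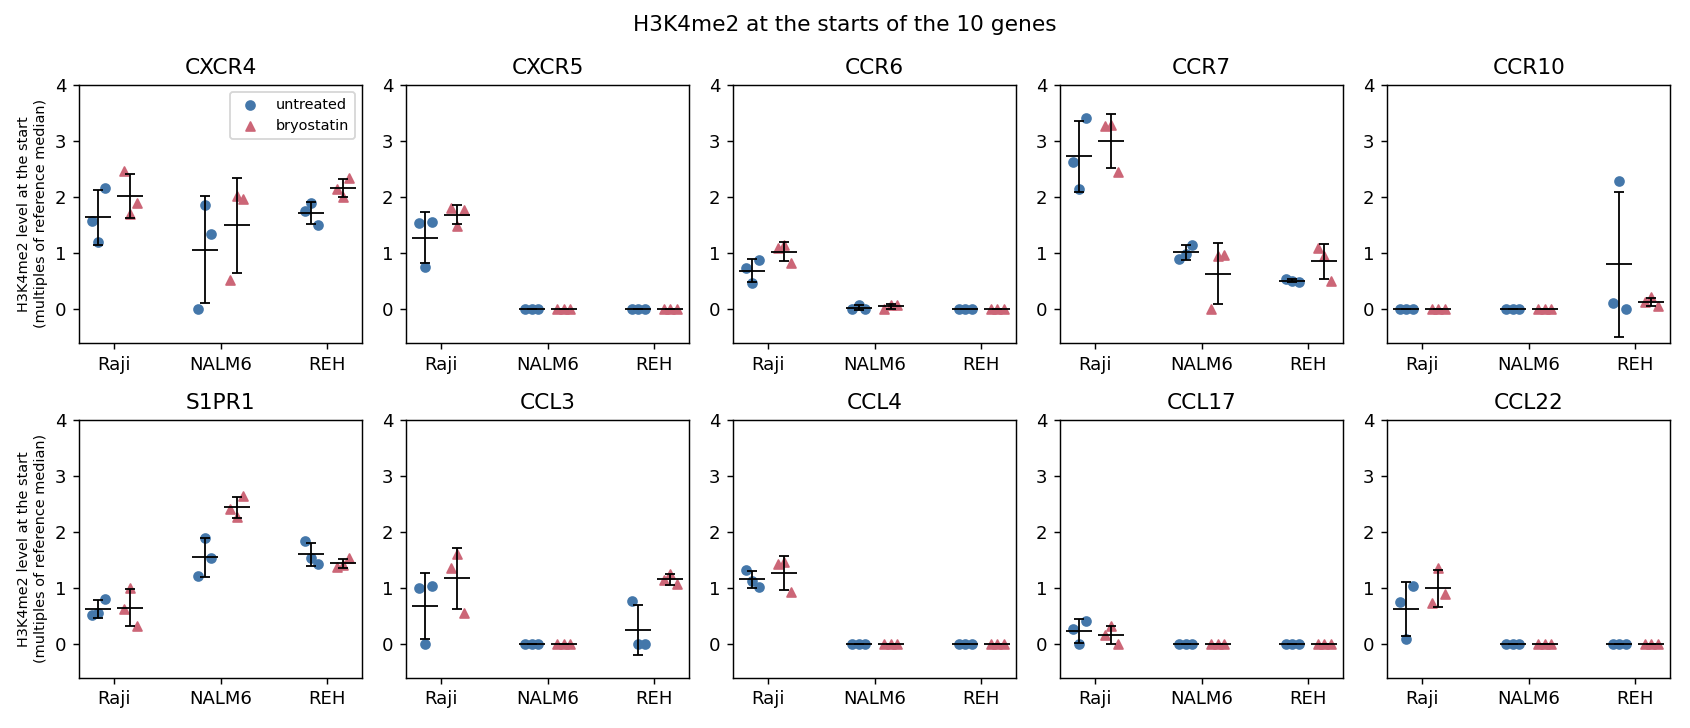
H3K4me2 level at the start (vertical axis, multiples of the reference median) in each line for the 10 genes, 1 panel a gene. Circles are untreated and triangles bryostatin libraries, and black bars give mean ± SD of 3. CXCR5, CCL4 and CCL22 are above 0 in Raji alone, while S1PR1 is lower in every Raji library than in the other lines.

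The ligands CCL3 and CCL4 sit 13.7 kb apart and differed in which lines carried them. CCL4 had an H3K4me2 start peak in 6 of 6 Raji libraries, at 1.32, 1.12 and 1.02 untreated and 1.43, 1.46 and 0.925 treated, and in 0 of 12 others (exact permutation p = 0.005). CCL3 had one in 5 of 6 Raji and 4 of 6 REH libraries, at 0.925 ± 0.575 and 0.705 ± 0.569 (SD, n = 6), which overlapped (log2 difference 0.75, SE 0.79, adjusted p = 0.635). NALM6 had none at either gene. H3K4me3 was called at CCL4 in 1 treated Raji library and at CCL3 in none. H3K27me3 was called at both starts in 4 of 6 NALM6 libraries, all but replicate 1 of each treatment, and in 0 of 6 REH libraries. In Raji it was called at CCL4 in 3 libraries and at CCL3 in 2 of them. Both genes have near-identical copies, CCL3L3 and CCL4L2, and reads may be split between them. CCL3L3 had H3K4me2 start peaks in 6 of 6 Raji, 6 of 6 REH and 0 of 6 NALM6 libraries, and CCL4L2 in 6, 4 and 0.

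**Figure D3:**
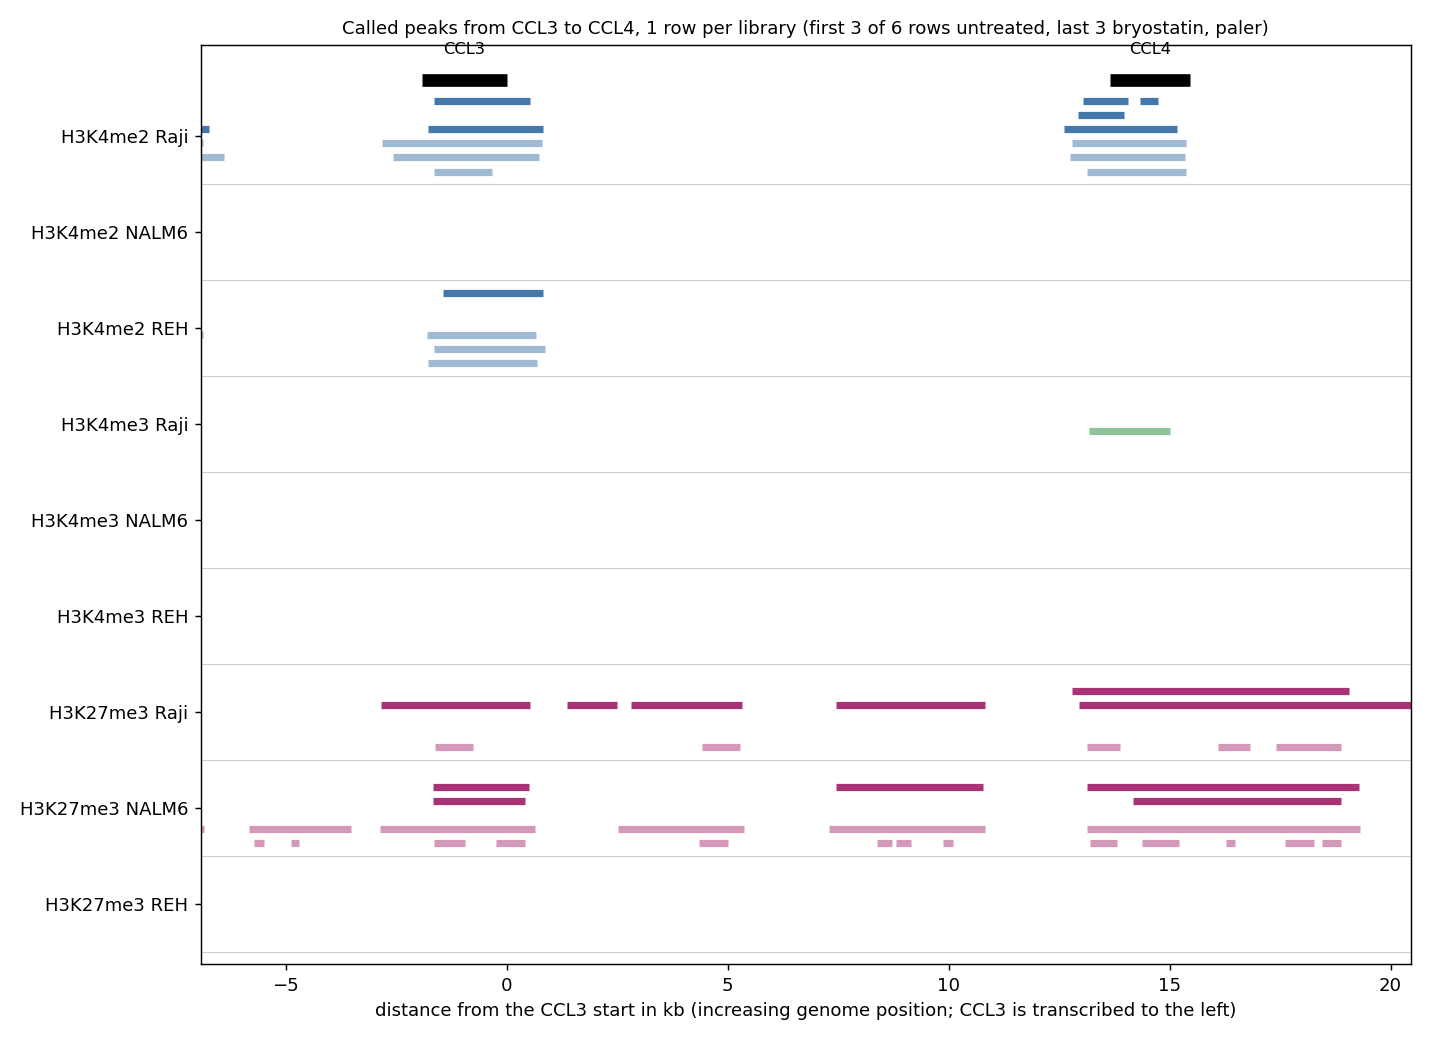
Called peaks around CCL3 and CCL4 by distance from the CCL3 start in kb (horizontal axis), 1 row per library grouped by mark and line, treated libraries paler and black bars the genes. H3K4me2 lies within 1 kb of the CCL4 start in all 6 Raji rows and of the CCL3 start in 5 Raji and 4 REH rows. H3K27me3 lies within 1 kb of each of these starts in 4 NALM6 libraries and of neither in any REH library.

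CCL22 and CCL17, which share the receptor CCR4, carried different marks at their starts in Raji and REH. At CCL22 the Raji H3K4me2 level was 0.756, 0.0851 and 1.03 untreated and 0.727, 1.36 and 0.899 treated, and no other library had a start peak (exact permutation p = 0.005). H3K4me3 was called there in 5 of 6 Raji libraries at up to 0.463 and in none of the others (exact permutation p = 0.020). CCL17 has an upstream start at 57404767 and a downstream start at 57413869. H3K4me2 was called there in 4 Raji libraries, at the downstream start alone, and the other lines had none (exact permutation p = 0.080 against either). No library had H3K4me3 at a CCL17 start.

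H3K27me3 lay over the same stretch in REH. From the first base of CCL22 to the last of CCL17, 57281 bases, it covered 51.8% to 86.5% in the 6 REH libraries with a median of 67.7%. In NALM6 it covered 0% to 58.9%, the lowest being replicate 1 of both treatments, and in Raji 0% in every library. The longest single H3K27me3 peak was 43320 bases in REH. H3K4me2 covered 2.60% to 23.3% of the stretch in Raji and 0% to 5.19% in REH. In REH it was called between the 2 genes in 4 of 6 libraries, where Raji libraries had a peak too. At the CCL17 starts H3K27me3 was called over 2274 ± 855 bases in REH and 224 ± 425 in NALM6 (SD, n = 6), without overlap between lines (exact permutation p = 0.005). These bases join both starts, and the lines differed in which was called. Every REH library had calls at the upstream start, and untreated replicate 1 and treated replicate 3 also at the downstream start. The NALM6 calls, of 12 to 1072 bases, lay at the downstream start alone. At the CCL22 start H3K27me3 was called in 5 of 6 REH, 3 of 6 NALM6 and 0 of 6 Raji libraries. Raji H3K27me3 libraries were uneven in depth, at 5.12 to 32.4 M reads, and the 2 deepest, untreated replicates 2 and 3, had no peak on this stretch either. Replicate 2 is the library with H3K27me3 start peaks at 57.1% of all genes, CXCR4 included, and the others of Raji had them at 1.39% to 28.1%.

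**Figure D4:**
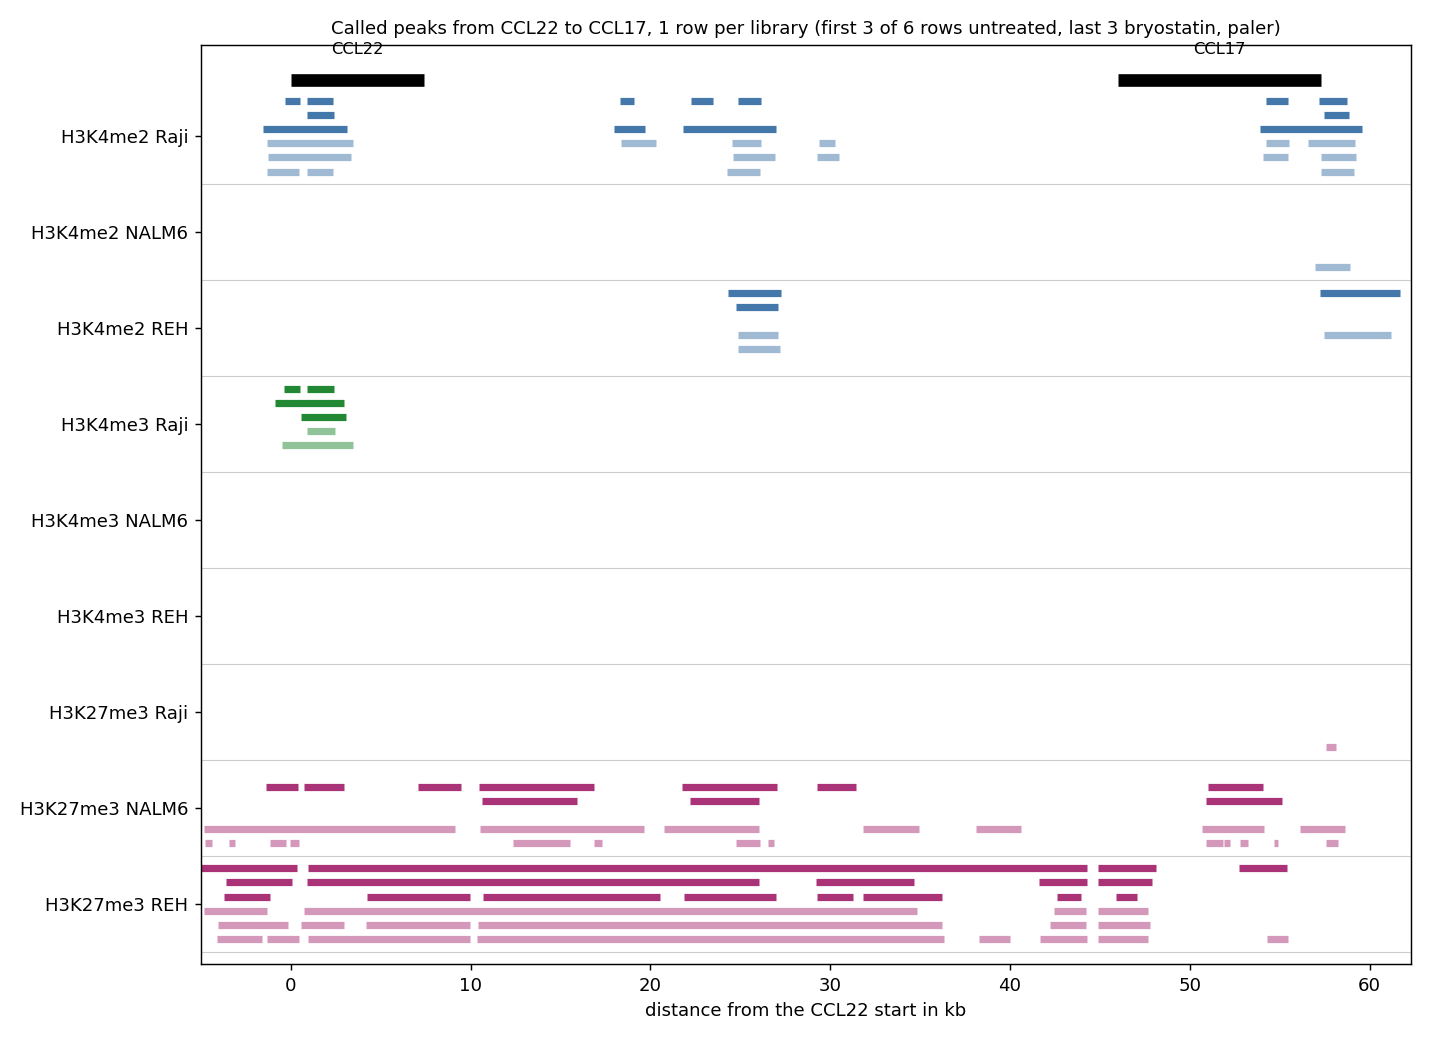
Called peaks from CCL22 to CCL17 by distance from the CCL22 start in kb (horizontal axis), 1 row per library grouped by mark and line, treated libraries paler and black bars the genes. Raji rows hold H3K4me2 at CCL22 and H3K27me3 nowhere on the stretch, while all 6 REH rows hold H3K27me3 over 51.8% to 86.5% of it. REH also has H3K4me2 between the genes in 4 libraries.

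Counted over the group, 6 of 10 starts were higher in Raji than in REH for H3K4me2 and 2 were lower, beside 10.8% and 17.1% of all 12920 tested starts. Against NALM6, 7 were higher in Raji and 1 lower, beside 22.4% and 9.96%. Between NALM6 and REH 0 were higher and 2 lower in NALM6, beside 3.85% and 17.5%. For H3K4me3, 5 of the 10 genes passed the filter of a start peak in at least 3 of 18 libraries. Of those, 3 were higher in Raji than in REH and 0 lower (all genes 14.1% and 12.2%), 3 higher than in NALM6 and 0 lower (23.7% and 11%), and 0 higher and 1 lower in NALM6 than in REH (4.88% and 12.6%). A start marked in a single line passes the filter through that line and had to differ, and where a line is at 0 its libraries have no spread, so such calls, those of CCL17 and CCR10 among them, add nothing to the library values above. An H3K4me2 peak in 6 of 6 Raji and 0 of 12 other libraries was found at 172 genes (0.86%), among them CXCR5, CCL4 and CCL22. For H3K4me3 it was found at 217 (1.08%), among them CXCR5 and CCR7.

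The genes with the H3K4me3 pattern most like a member's, by Pearson correlation of log2 start level over the 18 libraries, are given as a description. They were IFNLR1 and HLA-DRB5 for CXCR5 (both r = 1.00 to 2 decimals), CTSH and THBS4 for CCR7 (both 1.00), FCRL1 (0.97) and FCER2 (0.96) for CCL22, RBPJ (0.92) and OARD1 (0.90) for CXCR4, and ZCCHC18 and RTN4RL1 for S1PR1 (both 1.00). Where a start is listed at 0 in whole lines, the zeros fix most of the correlation.

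With bryostatin, few of these marks moved past a test. Of 23 regions in their windows called in all 6 libraries of a line and mark, 1 passed the test in limma, and it lay over the PLEKHH3 start. In Raji 0 of 10 H3K4me2 regions passed (2 at an unadjusted p under 0.05), with 0% of all 9316 regions called and 626 under that unadjusted p. In NALM6 0 of 2 passed (0 unadjusted; 0% of 4128 regions, 56 unadjusted), and in REH 0 of 4 (1 unadjusted; 1.45% of 10791). For H3K4me3, 0 of 4 passed in Raji (0 unadjusted; 0.155% of 9040), 0 of 1 in NALM6 (0 unadjusted; 0% of 3838, 7 unadjusted) and 1 of 2 in REH (1.67% of 7238). No test of a different response between lines passed at a start of the 10 genes (0 at an unadjusted p under 0.05, limma), beside 0.0232% (Raji and REH), 0.132% (Raji and NALM6) and 0.209% (NALM6 and REH) of all tested starts for H3K4me2 and 0%, 0% and 0.00847% for H3K4me3.

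CCR7 came nearest among the receptors. Its H3K4me2 region in REH, chr17:40559041-40566130, held 0.495 ± 0.0444 times the signal of the median region untreated and 0.926 ± 0.329 treated (SD, n = 3). The log2 difference was 0.83 (SE 0.22, adjusted p = 0.0921, limma). A fit that blocked on the replicate numbers gave adjusted p = 0.0104. The labels do not state that pairing, which was taken from correlations of 0.131 to 0.205 between same-numbered libraries. Every treated library was above every untreated one, but treated replicate 3 was close to them, and without it adjusted p = 4.52e-05. The called length went from 2210 to 4707 bases on average, and the mean signal per base gave a log2 difference of -0.10 (adjusted p = 0.969). The region holds all 3 CCR7 starts, and which of them gained called bases was not tested. Depth was 13.7 to 18.8 M reads untreated and 18.2 to 22.8 treated, and its part in the result was not tested. In Raji the same gene's H3K4me2 region gave a log2 difference of 0.00 (SE 0.12, adjusted p = 0.995).

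The region that passed, chr17:42673641-42680670 for H3K4me3 in REH, fell from 2.05 ± 0.0902 to 1.69 ± 0.0385 times the median region (SD, n = 3; log2 difference -0.28, SE 0.06, adjusted p = 0.0396 by limma). All 3 treated libraries were below all 3 untreated ones. It covers the starts of PLEKHH3 and of the long non-coding RNA ENSG00000267042, whose marks cannot be told apart, and no start of CCR10. The call was lost without untreated replicate 2 or any treated replicate, at adjusted p = 0.143 to 0.213.

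No other region of a receptor or ligand passed, which does not show that the levels were alike. For CXCR5 in Raji the log2 difference was 0.17 (SE 0.18, adjusted p = 0.836) for H3K4me2 and 0.05 (SE 0.11, adjusted p = 0.986) for H3K4me3. For CXCR4 in REH it was 0.18 (SE 0.09, adjusted p = 0.541) for H3K4me2 and -0.10 (SE 0.06, adjusted p = 0.615) for H3K4me3. CCL22 in Raji gave 0.10 (SE 0.23, adjusted p = 0.928) and CCL4 0.18 (SE 0.20, adjusted p = 0.833) for H3K4me2. CCL17 in Raji held 0.582 ± 0.147 times the median region untreated and 0.377 ± 0.0650 treated (SD, n = 3), a log2 difference of -0.61 (SE 0.24, adjusted p = 0.718). Treated Raji H3K4me2 libraries, at 15.6 to 18.8 M reads, were all deeper than the untreated ones at 6.70 to 13.9, so depth and treatment cannot be told apart there.

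**Figure D5:**
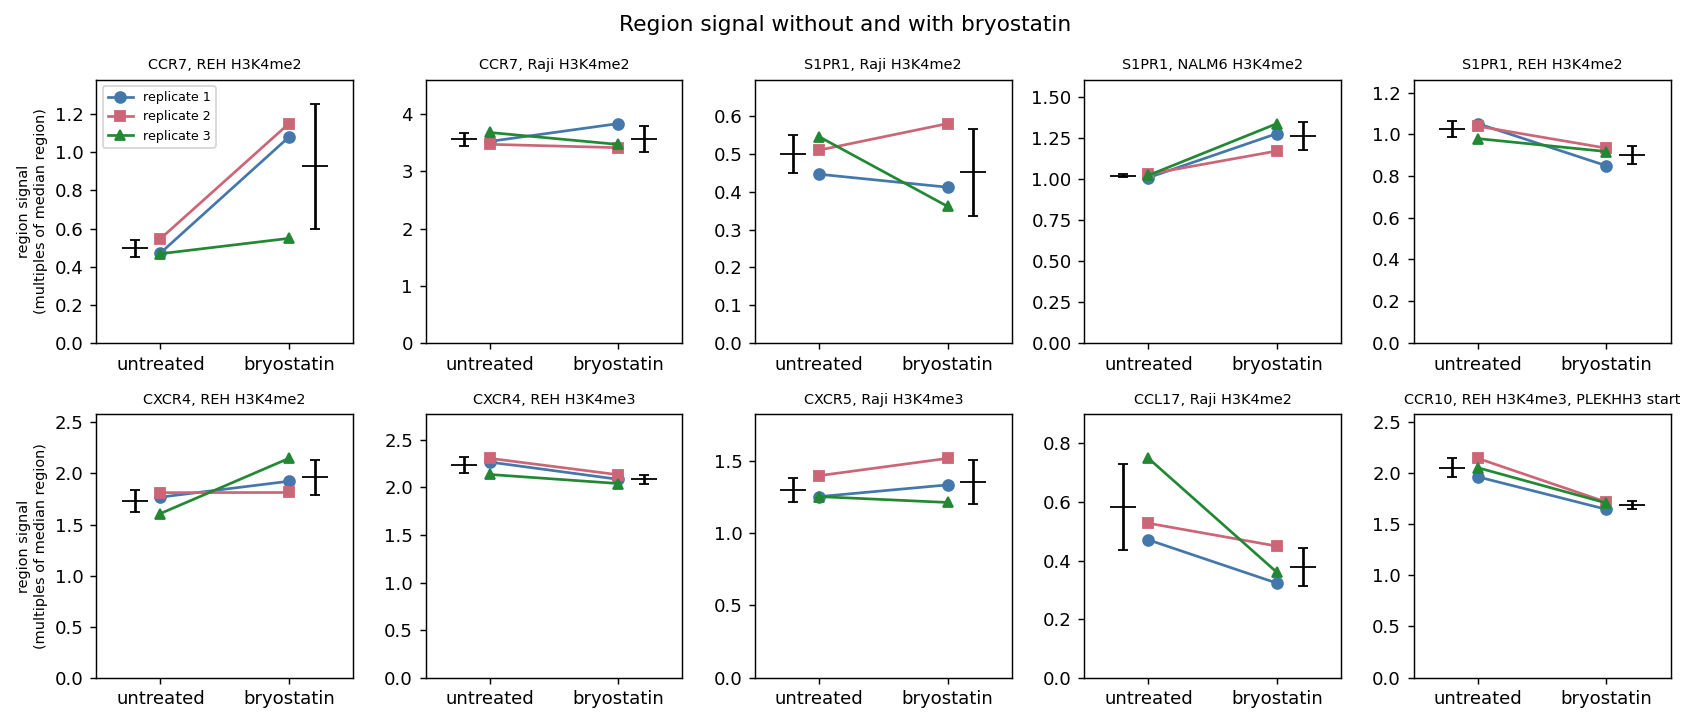
Region signal (vertical axis, multiples of the line's median region) without and with bryostatin for 10 regions, lines joining libraries of the same replicate number and black bars giving mean ± SD of 3. CCR7 in REH is higher in treated replicates 1 and 2 and is near the untreated values in replicate 3, and CXCR5 in Raji H3K4me3 overlaps between treatments.

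Whole gene windows, the gene with 3 kb flanks, were compared by whether treated and untreated libraries overlapped. Counts are of the genes with a peak in the window in any library of the line. For H3K4me2 they did not overlap at 2 of 10 in Raji (9.58% of all windows with a peak), 3 of 6 in NALM6 (6.94%) and 3 of 6 in REH (10.1%). Counts for H3K4me3 windows were 0 of 7 (11.4%), 1 of 3 (3.37%) and 2 of 3 (12.6%) for Raji, NALM6 and REH respectively. Those of H3K27me3 were 0 of 9 (0.357%), 0 of 7 (0.572%) and 1 of 4 (6.12%) in the same order. CCR10, whose window holds the peak over the PLEKHH3 start, was counted for H3K4me2 in Raji and NALM6 and for H3K4me3 in NALM6 and REH. It was the only window counted for H3K4me3 in NALM6. No window can pass on its own, since 3 libraries against 3 allow no exact two-sided p below 0.1. CCL3 in REH was among them, with H3K4me2 at 0.315, 0 and 0 untreated and 0.562, 0.564 and 0.534 treated. CCR6 in NALM6 held 0.597, 0.429 and 0.524 untreated and 0, 0.352 and 0.352 treated, the 0 being replicate 1. CCL17 in REH had H3K27me3 at 9.72, 1.02 and 1.15 untreated and 0.884, 0.787 and 0.860 treated, the high library being the one whose long peak also reached this window.

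Other genes of these families were counted for context, leaving out the 10. Of 18 other chemokine receptors 4 could be tested for H3K4me2. Of those, 0 were higher and 1 lower in Raji than in REH (10.8% and 17.1% of all tested starts), and the lower one was ACKR3, a scavenger receptor of CXCL12, with a log2 difference of -2.46 (SE 0.65, adjusted p = 0.00963). Its H3K4me3 was the reverse, called in 6 of 6 Raji and 0 of 12 other libraries. Against NALM6 (22.4% and 9.96%), 2 receptors (ACKR3 and CXCR3) were higher in Raji and 0 lower, and NALM6 had 1 higher (CCRL2) and 1 lower (ACKR3) than REH (3.85% and 17.5%). For H3K4me3 2 receptors could be tested, and ACKR3 alone was called, for both Raji pairs. Of 36 other ligands 4 could be tested for H3K4me2, and 0 were higher and 3 lower in Raji than in REH. Against NALM6 1 was higher in Raji (CX3CL1), and 2 were lower in NALM6 than in REH (CCL27 and CXCL16). For H3K4me3 1 ligand, CXCL16, could be tested and was not called. CXCR3 and CX3CL1 H3K4me2 and ACKR3 H3K4me3 were found in Raji libraries alone and passed the filter through them, so their calls are no test. CXCL16, a membrane-bound ligand, differed for H3K4me2 between Raji and REH by -2.96 (SE 0.77, adjusted p = 0.00855). The same shares stand beside the lists of ligands and of lipid guidance genes. Of 12 lipid guidance genes 10 could be tested, and 1 was higher and 5 lower in Raji than in REH. Against NALM6 3 were higher and 3 lower in Raji, and 4 were lower in NALM6 than in REH. For H3K4me3 9 could be tested, with 3 higher and 1 lower in Raji than in REH (14.1% and 12.2%), 4 and 1 against NALM6 (23.7% and 11%), and 0 and 2 for NALM6 against REH (4.88% and 12.6%). The 3 higher than in REH, CD69, GPR18 and GPR183, were also higher than in NALM6. Their H3K4me3 was found in Raji libraries alone and passed the filter through them, so those calls are no test. The same holds for GPR183 H3K4me2, higher in Raji than in NALM6. KLF2, a transcription factor known to activate S1PR1, had an H3K4me2 start peak in 6 of 6 REH, 6 of 6 NALM6 and 0 of 6 Raji libraries, and H3K27me3 there in 6 Raji, 4 NALM6 and 5 REH libraries. Its H3K4me3 was called in 2 REH libraries alone, too few for the test. CD69, which opposes S1PR1 at the surface, had H3K4me3 in 6 of 6 Raji and 0 of 12 other libraries. Its H3K4me2 was called in 4 Raji, 2 NALM6 and 5 REH libraries, and Raji did not pass against REH (log2 difference -0.52, SE 1.13, adjusted p = 0.879, limma) or NALM6 (1.91, SE 1.13, adjusted p = 0.194).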

How the data were processed

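Members and lists were chosen with earlier results of these data known. The authors trimmed reads (Trim Galore), aligned them to hg38 (Bowtie2), scaled the coverage of each library as RPKM, and ran the SEACR peak caller (stringent) on it. The deposited peak files hold the total and maximum signal of each peak, and the 6 NALM6 replicate 1 files carry a scaling not given in the sources used here. The 18 IgG samples were not used here. Signal within 1 kb of starts was prorated, divided by the median over genes marked in all libraries, and tested as log2(level + 0.05) with limma 3.58.1 (R 4.3.3), in 6 group means over 18 libraries of a mark. For bryostatin, peaks of a line and mark were merged, and regions called in all 6 libraries were tested by limma after median centring. Folds are on those scales, and p-values are Benjamini-Hochberg adjusted over all starts or regions, threshold 0.05. Single values used exact two-sided permutation tests. H3K27me3 at starts was compared by called bases, since its peak numbers varied widely between libraries, and its gene windows by signal.

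Scripts were tested on simulated data. Named genes were the 10 members, some of the genes starting in their windows, and the 2 most alike in H3K4me3. From each list came the 2 genes per mark and pair of lines with the smallest adjusted p. CCL3L3, CCL4L2, GPR18 and GPR183 were named besides. Same-numbered untreated and treated libraries deviated together in all 3 pairs of each line for H3K4me2 and H3K4me3 (correlation 0.131 to 0.676) except Raji H3K4me2 (-0.308 to 0.417), so the numbers were taken as pairs in those other sets. In NALM6 H3K4me2, untreated replicate 2 correlated 0.406 with treated replicate 3 and 0.4015 with treated replicate 2. There the correlations do not single out the same-numbered pairs of replicates 2 and 3. H3K27me3 was not checked.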

Additional observations from a re-analysis of the deposited data

Results flagged for a closer look

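The H3K4me2 window of S1PR1 had treated to untreated ratios on opposite sides of 1 in the leukemia lines, and neither passed a test within its line (exact permutation p = 0.1, the smallest that 3 against 3 allow, and limma adjusted p = 0.999 in NALM6 and 0.532 in REH for the region over its start). The treated to untreated ratio was 1.24 in NALM6, higher in 3 of 3 pairs, and 0.880 in REH, lower in 3 of 3 pairs. The difference in response at the start was tested in limma and did not pass (log2 difference 0.81, SE 0.42, adjusted p = 0.957).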

How the results depend on the processing

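Of 27 single values, 460 of 513 results under other settings kept their direction and side of the threshold. Members differing between lines for H3K4me2 numbered 3 (Raji and REH), 4 (Raji and NALM6) and 1 (NALM6 and REH) with a start peak in at least 9 of 18 libraries, and 4, 3 and 0 with the upper part of peaks by signal. NALM6 and REH differed at 1 with a pseudocount of 0.2, gene record ends, quantile normalization, untreated libraries or the exact permutation, and at 1 to 3 leaving out a replicate. For H3K4me3 the counts were 0 with at least 9 of 18 libraries or upper peaks for either Raji pair, 5 for Raji and REH with 2.5 kb windows, and for NALM6 and REH 2 with 2.5 kb windows, 0 with gene record ends, upper peaks or untreated libraries, and 0 to 1 leaving out a replicate. The causes were not tested.

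For bryostatin, members with a changed region in REH H3K4me2 numbered 1 with no centring, regions called in at least 3 of 6 libraries or the replicate block, and 0 to 1 leaving out a replicate. For REH H3K4me3 they numbered 0 with maximum signal, mean signal per base, no centring, no trend or upper peaks, and 0 to 1 leaving out a replicate. The replicate block changed no other call of a member's region.

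Gene windows without overlap numbered, with maximum signal, 1 (H3K4me2, each line), 2 (Raji H3K4me3), 1 (REH H3K4me3) and 0 (REH H3K27me3). Without flanks they numbered 0 (Raji H3K4me2), 1 (NALM6 H3K4me2), 0 (NALM6 H3K4me3) and 0 (REH H3K27me3), and with upper peaks 1 (H3K4me2, each line) and 0 (NALM6 H3K4me3). Leaving out a replicate gave 2 to 4 (Raji H3K4me2), 0 to 1 (Raji H3K4me3), 1 to 2 (NALM6 H3K4me3), 0 to 3 (Raji H3K27me3), 0 to 2 (NALM6 H3K27me3) and 1 to 2 (REH H3K27me3). Members with a start peak in all 6 libraries numbered 2 with 2.5 kb windows in NALM6 H3K4me2 and REH H3K4me3. With upper peaks they numbered 1 (Raji H3K4me2), 0 (NALM6 H3K4me2), 1 (REH H3K4me2), 1 (Raji H3K4me3), 0 (NALM6 H3K4me3) and 1 (REH H3K27me3).

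These log2 differences turned in direction. CCR7 between NALM6 and REH gave 0.056 (pseudocount 0.2), 0.0025 (2.5 kb), 1.04 (gene record ends), 0.32 (quantile), 0.96 (untreated) and -0.51 to 0.67 leaving out a replicate. S1PR1 for that pair gave -0.035 with untreated libraries. In Raji, CCR7 gave -0.075 and CXCR5 H3K4me3 -0.12 with maximum signal, and CCL22 gave -0.028 per base, as did CCR7 in REH at -0.10. Leaving out a replicate, CXCR4 H3K4me2 ran from -0.21 to 0.019 (Raji and REH) and -0.069 to 1.63 (Raji and NALM6). Raji regions ran from -0.010 to 0.37 (CXCR5 H3K4me2), -0.13 to 0.29 (CCL22), -0.048 to 0.036 (CCR7 H3K4me2) and -0.031 to 0.13 (CXCR5 H3K4me3).

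Sparse peaks limit these results: a start under a library's peak threshold is listed at 0, depth differs between groups, and H3K27me3 peak numbers differ widely between libraries.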
